A study of Mus musculus with 4 samples.

Results

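Cadherins are adhesion proteins of the cell surface that bind each other between neighbouring cells in the presence of calcium. Here the genes of the family were followed in the dermal papilla, the mesenchymal cell cluster at the base of the hair follicle, of mice with a conditional knockout of the transcription factor gene Sox2 (Sox2 cKO) and of mice heterozygous for it (Sox2 Het). Members were chosen by symbol, as Cdh or Pcdh followed by a number or a clustered protocadherin name, on probe sets annotated to that gene alone. This took 57 of 19938 measured genes, on 61 probe sets. They comprised 23 numbered cadherins, 12 numbered protocadherins (Pcdh11x, on the X chromosome, counted with these) and 22 genes of the beta protocadherin cluster. No gene of the alpha and gamma clusters had a probe set naming it alone.

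The classical cadherins hold adherens junctions together and are tied to actin through beta-catenin, alpha-catenin and p120-catenin. Cells that carry different cadherins, or different amounts, tend to sort apart, and the swap of E-cadherin for N-cadherin is a familiar mark of the passage between epithelial and mesenchymal states. Protocadherins bind more weakly, lack the catenin-binding tail and are best known from neurons, where they take part in wiring and in self-recognition. In the hair follicle the epithelium carries E-cadherin and P-cadherin, while mesenchymal cells carry N-cadherin and cadherin-11.

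Cells were sorted from skin at postnatal day 5 for a Sox2-linked green fluorescent protein together with integrin alpha 9, in both groups, and each group had 2 arrays (replicates 1 and 2). The sources used here do not name the driver of the knockout, the sex of the animals or any pooling, so p-values measure only the spread between these arrays. Xist and Y-linked genes were separated between the groups (values below), so sex could not be told apart from genotype for any member. Each deposited value is relative to the median of its probe set over the 4 arrays, on a scale taken as log2. The files therefore hold differences between arrays and no expression level: whether a cadherin was expressed at all, which cadherin was most abundant, and whether defining markers of the papilla were present could not be read. In sorted bulk cells, fewer cells of a type and less RNA per cell cannot be told apart. Sox2 itself was at -0.87 and -0.94 in the cKO arrays and at 0.96 and 0.87 in the Het arrays. Its difference, cKO minus Het, was -1.81 ± 0.06 (SE of the limma fit, n = 2 per group), with an adjusted p of 0.345 over all genes.

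A change in a SOX factor raises the question of which SOX-type sequences lie in promoters. Promoter sequences of 3 of the members with large differences are therefore shown first. They are from RefSeq (GRCm38.p6), span 250 bases before to 50 bases after the annotated start, and run 5′ to 3′ along the gene. There were 25 such windows for 22 of the 57 members, and those of 3 members with large differences are printed here. That a window is not printed does not show that the member lacked one. Capitals mark matches on either strand to CATTGT or CTTTGT, which are cores bound by SOX factors, or to CAGGTG, the E-box bound by SNAIL and ZEB repressors. None of these motifs overlaps another in the windows shown.
Pcdh18, chr3:49757267-49757566, minus strand: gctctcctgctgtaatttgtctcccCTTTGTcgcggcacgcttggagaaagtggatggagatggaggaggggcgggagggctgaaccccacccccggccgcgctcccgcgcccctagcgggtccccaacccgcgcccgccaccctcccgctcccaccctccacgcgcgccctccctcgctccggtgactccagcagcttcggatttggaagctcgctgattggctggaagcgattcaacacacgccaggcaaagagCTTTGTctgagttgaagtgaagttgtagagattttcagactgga
Pcdh20, chr14:88471347-88471646, minus strand: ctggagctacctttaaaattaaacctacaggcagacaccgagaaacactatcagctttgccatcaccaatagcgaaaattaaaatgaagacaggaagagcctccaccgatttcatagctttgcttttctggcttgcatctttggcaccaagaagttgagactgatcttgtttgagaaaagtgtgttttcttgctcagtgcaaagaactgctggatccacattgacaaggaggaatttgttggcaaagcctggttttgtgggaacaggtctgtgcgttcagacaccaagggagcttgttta
Cdh10, chr15:18820079-18820378, plus strand: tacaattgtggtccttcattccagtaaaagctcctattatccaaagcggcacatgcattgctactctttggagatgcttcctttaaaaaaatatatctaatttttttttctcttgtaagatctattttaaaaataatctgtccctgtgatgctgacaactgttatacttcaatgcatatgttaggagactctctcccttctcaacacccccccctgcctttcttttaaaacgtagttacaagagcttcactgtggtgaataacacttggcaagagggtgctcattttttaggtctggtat
The Pcdh18 window held CTTTGT at 2 places on the gene strand, starting 225 bases before the start and at base 7 after it, while 2.37% of all 32851 windows hold it at least that often. The windows of Pcdh20 and Cdh10 held none of the 3 motifs. Over the member windows CTTTGT lay in 5 of 25, against 18.7% of all windows. CATTGT lay in 0 of 25 (12.6% of all) and CAGGTG in 5 of 25, from 3 genes (20.2% of all). Such a match is a stretch of letters in this window and not a measured site. The GC content was 63% in the window of Pcdh18, 43.7% in that of Pcdh20 and 37.7% in that of Cdh10. The median was 52.7% over all windows and 60.3% over the member windows, which ran from 37.7% to 76.3%.

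No cadherin or protocadherin gene passed the test between cKO and Het. Limma called 0 of 57 members at an adjusted p of 0.05, and 0 of 19938 genes (0%). The difference was at least 0.1 on the log2 scale in 13 members, 22.8% of the family beside 26.6% of all genes, and at least 0.2 in 6 members, 10.5% beside 11.1% of all genes. The 5 largest differences were set apart from the others by size. They were N-cadherin (Cdh2), Pcdh20 and Pcdh18, lower in both cKO arrays, Pcdh11x, higher in both cKO arrays, and Cdh10, which was high in cKO replicate 1 and level with Het in cKO replicate 2. Each was at least 0.4 in size, a limit chosen after the values were seen, and the next member, Pcdhb7, was at 0.21. Differences of at least 0.4 with separated groups were present in 1.56% of all genes on the lower side and 0.411% on the higher side. In the family they numbered 3 and 2 of 57.

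Counted by direction the family resembled the array as a whole. Of the members 33 were higher and 24 lower in cKO, with a median difference of 0.0043, beside a median of 0.0034 over all genes. The cKO and Het arrays did not overlap in 9 members that were higher in cKO (17.8% of all genes) and in 8 that were lower (15.6% of all genes). At an unadjusted p under 0.05 (limma) there were 5 members, Pcdhb7, Pcdh11x, Pcdhb17, Pcdh20 and Cdh2, where 5.28% of all genes lie. The smallest adjusted p of a member was 0.934. No array carried the family upwards or downwards: the median over members was -0.0040 and 0.0040 in the cKO arrays and -0.0044 and 0.0051 in the Het arrays.

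**Figure D1:**
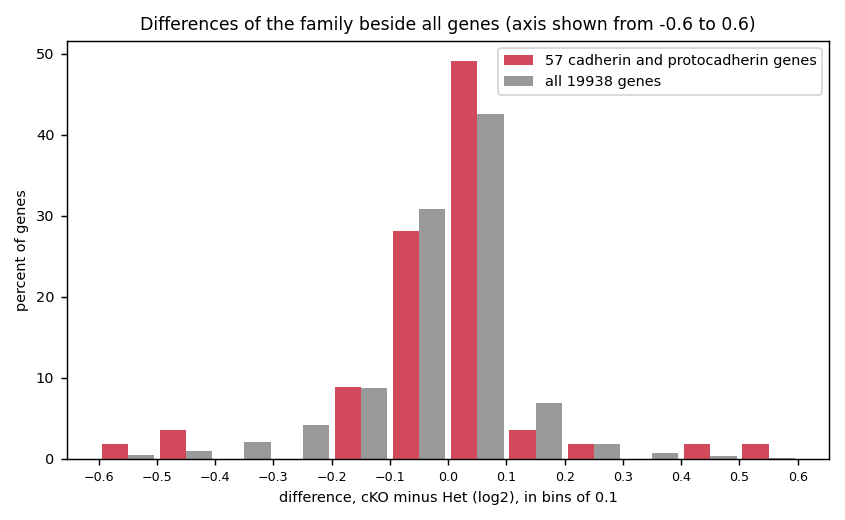
Differences between cKO and Het arrays (log2, bins of 0.1) as a percent of the 57 cadherin and protocadherin genes (red) and of all 19938 genes (grey). Both sets centre near 0; 5 members lie at 0.4 or more in size, and the 0.652% of all genes that lie at 0.6 or more are outside the axis.

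Among the type I classical cadherins, which share the strand-swapped adhesive first domain and bind the catenins, Cdh2 stood apart. Cdh2, the N-cadherin of mesenchyme and neurons, was at -0.12 and -0.39 in the cKO arrays, against 0.48 and 0.12 in the Het arrays. Both cKO arrays were below both Het arrays, and the arrays closest to each other were cKO replicate 1 and Het replicate 2. The difference was -0.55 ± 0.17, a value 1.46-fold lower in cKO (unadjusted p = 0.0402, adjusted p = 0.936, limma). By size it ranked 164 of 19938 genes. With each array left out in turn it lay between -0.73 and -0.37. Markers of dermal fibroblasts, which neighbour the papilla, lay on the same side: all 10 listed genes were lower in cKO, 6 of them with separated groups (15.6% of all genes), and their median was -0.05 and -0.10 in the cKO arrays and 0.09 and 0.13 in the Het arrays. Other lists also leaned lower in cKO, with 11 of 12 keratinocyte markers and 8 of 10 smooth muscle and pericyte markers lower. Dermal papilla markers were split, with 8 higher and 7 lower of 15. Groups were separated in 5 of the higher and 4 of the lower genes (17.8% and 15.6% of all genes). Their differences ran from -2.15 (Sostdc1) to 1.08 (Ndnf). No marker passed over all genes, and the part of these cell types in the Cdh2 value was not tested.

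The other type I genes were near 0. Cdh1, the E-cadherin of epithelia, was at -0.07 and 0.07 in the cKO arrays and at -0.19 and 0.10 in the Het arrays, with a difference of 0.045 ± 0.13. Cdh3, the P-cadherin of the hair matrix, mutated in human hereditary hair loss, was at 0.08 and -0.12 in cKO and at -0.02 and 0.02 in Het. The groups overlapped for both genes, and the 95% intervals of the differences, which are not adjusted over genes, ran from -0.33 to 0.42 for Cdh1 and from -0.27 to 0.23 for Cdh3. Cdh4, the R-cadherin, was at -0.03 and 0.10 in cKO and at 0.0034 and -0.0034 in Het. Cdh15, the M-cadherin of skeletal muscle, differed by 0.02 ± 0.04, and 4 of 11 skeletal muscle markers were higher and 7 lower. Markers of keratinocytes, the cells that carry Cdh1 and Cdh3, had medians of -0.04 and -0.0008 in the cKO arrays and of -0.04 and 0.28 in the Het arrays, so they were highest in Het replicate 2. In that array Cdh1 was also at its highest of the 4 values, while Cdh3 was highest in cKO replicate 1. The part of keratinocytes in the Cdh1 and Cdh3 values was not tested.

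The type II classical cadherins, whose adhesive domain uses a pair of tryptophans, numbered 13. Their differences ran from -0.13 to 0.45 with a median of 0.0033. Cdh11, the mesenchymal OB-cadherin, was at -0.07 and -0.0051 in the cKO arrays and at 0.10 and 0.0051 in the Het arrays. The groups were separated, but by little, and the difference was -0.09 ± 0.06 (95% interval -0.26 to 0.07). A further 3 probe sets naming Cdh11 together with 2 other gene models had differences from -0.07 to -0.02 with overlapping groups. The interval for Cdh2, also not adjusted over genes, ran from -1.06 to -0.04, while that for Cdh11 held 0. The intervals overlapped, but this does not show a shared change of the mesenchymal cadherins.

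Cdh10, a type II cadherin best known from the brain, was at 0.87 and 0.0041 in the cKO arrays, against -0.0041 and -0.03 in the Het arrays. The value came from cKO replicate 1 alone, and cKO replicate 2 was level with Het. The difference of 0.45 ± 0.33 (adjusted p = 0.986, limma) became 0.02 without cKO replicate 1 and 0.88 without cKO replicate 2. The other 4 members on chromosome 15, Cdh6, Cdh9, Cdh12 and Cdh18, had differences from -0.08 to 0.08 with overlapping groups.

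For most of the remaining type II genes the groups overlapped. Cdh5, the VE-cadherin of endothelium, was at -0.01 and 0.01 in cKO and at -0.09 and 0.35 in Het, so that Het replicate 2 stood above the other arrays. Its difference of -0.13 ± 0.17 turned to 0.09 without Het replicate 2. Endothelial markers, 5 of 11 higher and 6 lower, had medians of -0.0003 and 0.0082 in cKO and of -0.01 and 0.0077 in Het. The part of endothelial cells in the Cdh5 value was not tested. Cdh6, the K-cadherin, was at 0.10 and -0.10 in cKO and at 0.29 and -0.14 in Het. Cdh19, a marker of Schwann cell precursors, was at -0.04 and 0.0088 in cKO and at 0.07 and -0.0088 in Het, a difference of -0.05 ± 0.05. The Schwann and glial markers, 5 of 9 lower and 4 higher, had medians of -0.0067 and -0.09 in cKO and of -0.04 and 0.01 in Het. These medians hide large single values. Egr2 was at -1.35 ± 0.23 and Fabp7 at -0.82 ± 0.08, both with separated groups and an adjusted p of 0.897 (limma). Cdh7 was at -0.0065 and -0.0087 in cKO and at 0.02 and 0.0065 in Het, a difference of -0.02 ± 0.03 with separated groups. The differences of Cdh8, Cdh9, Cdh12, Cdh18, Cdh20, Cdh22 and Cdh24 lay between -0.04 and 0.08 with overlapping groups.

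Among the remaining numbered cadherins, Cdh13, the T-cadherin held in the membrane by a lipid anchor and lacking a catenin-binding tail, was at -0.10 and 0.02 in cKO and at 0.19 and -0.02 in Het. Its groups overlapped, with a difference of -0.12 ± 0.10. Cdh17, known from intestine, was at -0.04 and -0.0032 in cKO and at 0.0032 and 0.02 in Het. Its groups were separated by little, with a difference of -0.03 ± 0.04. Cdh16, known from kidney, Cdh23, a hair cell tip link protein of the inner ear, and Cdh26 overlapped, with differences from 0.0053 to 0.04.

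**Figure D2:**
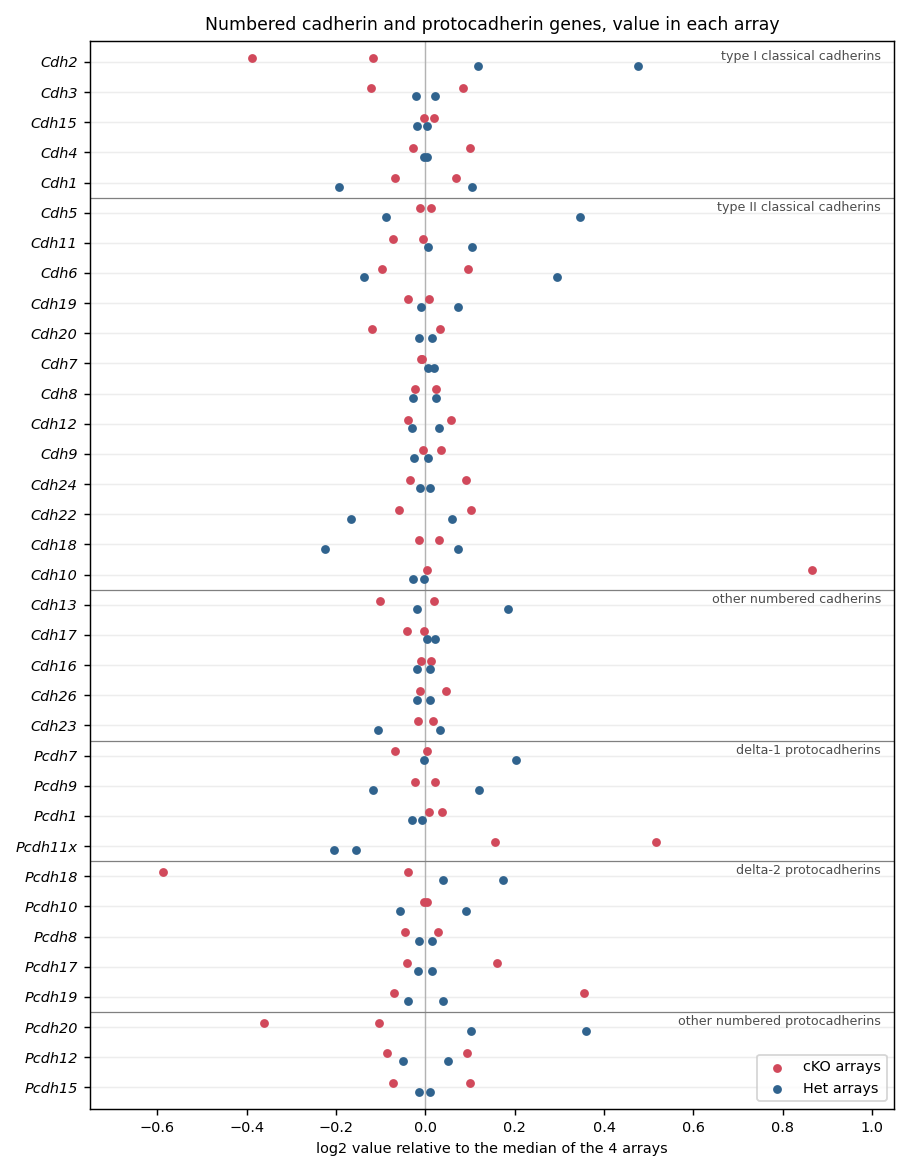
Value of each of the 35 numbered genes in every array (log2, relative to the median of the 4 arrays; red points are cKO, blue points Het, 2 arrays each), in blocks by class. Cdh2, Pcdh20 and Pcdh18 have both red points left of both blue points, Pcdh11x has them to the right, and for Cdh10 a single red point, cKO replicate 1, lies at 0.87.

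The non-clustered protocadherins held 3 of the 5 large differences, each in a different class. Pcdh20 was at -0.36 and -0.10 in the cKO arrays, against 0.36 and 0.10 in the Het arrays. Both cKO arrays were below both Het arrays, with a difference of -0.46 ± 0.14 or 1.38-fold lower (unadjusted p = 0.0370, adjusted p = 0.936, limma). With single arrays left out it lay between -0.59 and -0.33. The other chromosome 14 members, Cdh24, Pcdh8, Pcdh9 and Pcdh17, lay between -0.0085 and 0.06 with overlapping groups.

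Pcdh18, a delta-2 protocadherin, was at -0.04 and -0.59 in the cKO arrays, against 0.17 and 0.04 in the Het arrays. The groups were separated by a small gap, and cKO replicate 2 was far below the other arrays. The difference of -0.42 ± 0.22 (adjusted p = 0.962, limma) became -0.15 without cKO replicate 2 and -0.69 without cKO replicate 1. Pcdh10, also a delta-2 gene on chromosome 3, was at -0.0040 and 0.0040 in cKO and at -0.06 and 0.09 in Het. The delta-2 proteins bind a regulator of the actin network through their tails, and the others of the class, Pcdh8, Pcdh17 and Pcdh19, had overlapping groups.

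Pcdh11x, a delta-1 protocadherin gene of the X chromosome, was at 0.16 and 0.52 in the cKO arrays, against -0.16 and -0.20 in the Het arrays. Both cKO arrays were above both Het arrays, with a difference of 0.52 ± 0.14 or 1.43-fold higher (unadjusted p = 0.0272, adjusted p = 0.936, limma). Without cKO replicate 2 the difference was 0.33. Pcdh19, the other X-linked member, which is mutated in an epilepsy of human females, was at -0.07 and 0.35 in cKO and at -0.04 and 0.04 in Het, and its difference of 0.14 ± 0.17 was -0.07 without cKO replicate 2. Sex-linked genes stood apart between the groups as well. Xist, the RNA that silences an X chromosome in female cells, was at 0.85 and 1.23 in cKO and at -4.08 and -0.85 in Het, and the Y-linked Eif2s3y was at -0.87 and -0.79 in cKO and at 1.18 and 0.79 in Het. The Y-linked genes Kdm5d (-0.75 ± 0.14) and Uty (-0.59 ± 0.14) had separated groups too. The split of the sex-linked genes thus ran along the groups. With 2 arrays per group, sex could not be separated from genotype. Its part in the value of any member, X-linked or not, was not tested.

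The other non-clustered protocadherins were close to 0 or spread within groups. Pcdh7, a delta-1 gene, was at 0.0036 and -0.07 in cKO and at -0.0036 and 0.20 in Het, a difference of -0.13 ± 0.09. Pcdh1 was at 0.04 and 0.0071 in cKO and at -0.0071 and -0.03 in Het, a difference of 0.04 ± 0.04 with separated groups. Pcdh9 was at 0.02 and -0.02 in cKO and at -0.12 and 0.12 in Het, and its 2 probe sets had the same sign in every array. Pcdh12, known from endothelium, and Pcdh15, which pairs with Cdh23 in the inner ear, differed by 0.0043 and 0.02 with overlapping groups.

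**Figure D3:**
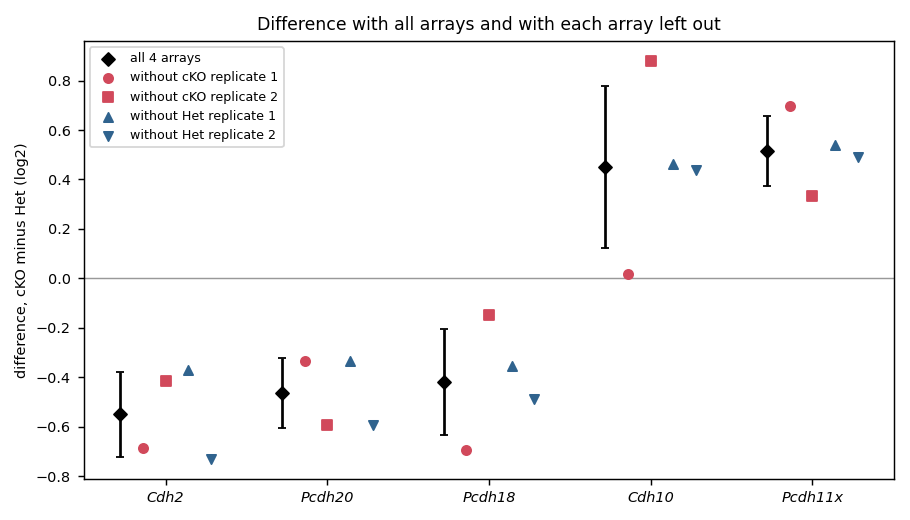
Difference between cKO and Het (log2) for the 5 members of at least 0.4, with all 4 arrays (black, bars are the SE of the limma fit) and with each array left out (red, a cKO array left out; blue, a Het array left out). The groups of all 5 are separated, so leaving out 1 array cannot turn their direction and only the size can change. Cdh10 is at 0.02 without cKO replicate 1 and Pcdh18 at -0.15 without cKO replicate 2.

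The beta protocadherins are encoded in a row on chromosome 18, each by an unspliced variable exon with its own promoter, and neurons switch on different subsets of them. Their sequences are so alike that array probes may read several genes, so their values are uncertain as values of single genes. The 22 genes had differences from -0.15 to 0.21 with a median of 0.01, and 14 were higher and 8 lower in cKO. With separated groups 6 of 22 were higher (Pcdhb1, Pcdhb4, Pcdhb6, Pcdhb7, Pcdhb11 and Pcdhb21), beside 17.8% of all genes, and 2 of 22 lower (Pcdhb15 and Pcdhb17), beside 15.6% of all genes.

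Pcdhb7 was at 0.15 and 0.07 in the cKO arrays, against -0.07 and -0.14 in the Het arrays, a difference of 0.21 ± 0.05 or 1.16-fold higher. It had the smallest unadjusted p of the family (0.0176, adjusted p = 0.934, limma). Pcdhb17 was at -0.08 and -0.05 in cKO, against 0.11 and 0.05 in Het, a difference of -0.14 ± 0.04. The arrays of a group lay close together for both genes: the SD was 0.05 in cKO and 0.05 in Het for Pcdhb7, and 0.02 in cKO and 0.04 in Het for Pcdhb17.

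Pcdhb21 was at 0.08 and 0.04 in cKO and at -0.04 and -0.05 in Het, a difference of 0.10 ± 0.04. Pcdhb11 was at 0.04 and 0.04 in cKO and at -0.04 and -0.06 in Het, a difference of 0.08 ± 0.04. Pcdhb15 was at -0.02 and -0.08 in cKO and at 0.02 and 0.05 in Het, a difference of -0.09 ± 0.04. The other 3 genes with separated groups had differences of 0.055 (Pcdhb6), 0.0465 (Pcdhb1) and 0.0218 (Pcdhb4). Pcdhb6 was at 0.01 and 0.05 in cKO and at -0.03 and -0.01 in Het, and Pcdhb1 at 0.0010 and 0.0046 in cKO and at -0.0010 and -0.09 in Het. Pcdhb4 was at 0.0043 and 0.0014 in cKO and at -0.04 and -0.0014 in Het.

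The widest spread in the cluster was in Pcdhb20, at 0.09 and -0.38 in cKO and at 0.07 and -0.07 in Het, and in Pcdhb16, at 0.05 and -0.05 in cKO and at 0.22 and -0.21 in Het. The groups of both overlapped. The alpha cluster was read by 1 probe set that names 14 genes, at -0.02 and 0.05 in cKO and at -0.02 and 0.02 in Het, a difference of 0.02 ± 0.04.

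**Figure D4:**
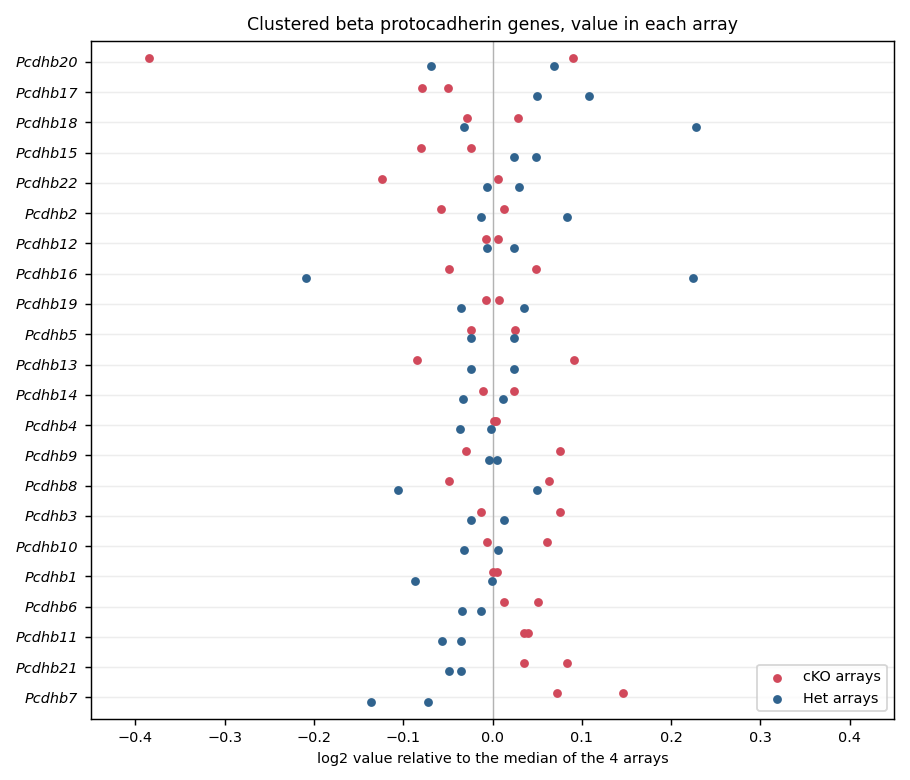
Value of each of the 22 beta protocadherin genes in every array (log2, relative to the median of the 4 arrays; red points are cKO, blue points Het, 2 arrays each). Most points lie within 0.1 of 0; Pcdhb7 at the bottom has both red points right of both blue points, and Pcdhb17 near the top has them to the left.

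The partners of the cadherins were read from lists chosen with earlier results of these data known, and limma called 0 genes in any of them at an adjusted p of 0.05. Of the catenins, plakophilins and other junction partners, 8 of 16 were higher and 8 lower in cKO, with a median of 0.0035 beside 0.0034 over all genes. Ctnnd1, the p120-catenin that keeps cadherins at the surface, was at 0.07 and 0.17 in cKO and at -0.11 and -0.07 in Het, a difference of 0.21 ± 0.06 with separated groups. Ctnnb1, the beta-catenin gene, was at 0.18 and -0.18 in cKO and at 0.18 and -0.22 in Het, so the arrays differed by replicate number and not by group. Ctnna1, the alpha-catenin gene, was at 0.12 and -0.44 in cKO and at 0.11 and -0.11 in Het. Jup, the plakoglobin gene, differed by -0.22 ± 0.14 with its highest value, 0.34, in Het replicate 2.

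Desmosomal cadherins, which join keratinocytes, were higher in 3 and lower in 4 of 7 measured genes (9 listed). Dsc3, at -0.29 ± 0.24, had 0.52 in Het replicate 2, the array in which the keratinocyte markers were highest. Dsg1c was at 0.12 ± 0.05. The part of keratinocytes in these values was not tested. The large and atypical cadherins were higher in 6 and lower in 10 of 16 genes, 2 and 5 of them with separated groups (17.8% and 15.6% of all genes). Clstn2, a calsyntenin of synapses, was at 0.35 ± 0.17, and the Fat4 and Fat1 genes, whose giant products act in planar polarity and growth control, were at -0.25 ± 0.12 and -0.25 ± 0.11. Dchs1, the ligand of Fat4, was at -0.22 ± 0.14 with separated groups. Among 5 nectin genes, whose proteins seed adherens junctions, Nectin3 was at 0.30 ± 0.08 and Nectin1 at -0.21 ± 0.12.

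Transcription factors that repress or switch cadherins were higher in 6 and lower in 3 of 9 genes, with a median of 0.05. Zeb2 was at 0.09 and 0.31 in cKO and at -0.09 and -0.12 in Het, a difference of 0.30 ± 0.09. Tcf4, an E protein that pairs with such factors, was at -0.27 and -0.12 in cKO and at 0.35 and 0.12 in Het, a difference of -0.43 ± 0.11. Snai2 was at 0.05 ± 0.04, and Zeb1 at 0.0058 ± 0.06 with overlapping groups. Among proteases that cut cadherins or mature them, 6 were higher and 2 lower of 8 measured genes (9 listed). Mmp3, a stromelysin that can cleave E-cadherin, was at 0.12 and 0.11 in cKO and at -0.11 and -0.15 in Het, a difference of 0.24 ± 0.04 and the smallest unadjusted p of these lists (0.00509, adjusted p = 0.897, limma). Adam17 was at -0.36 ± 0.19 with 0.55 in Het replicate 1.

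**Figure D5:**
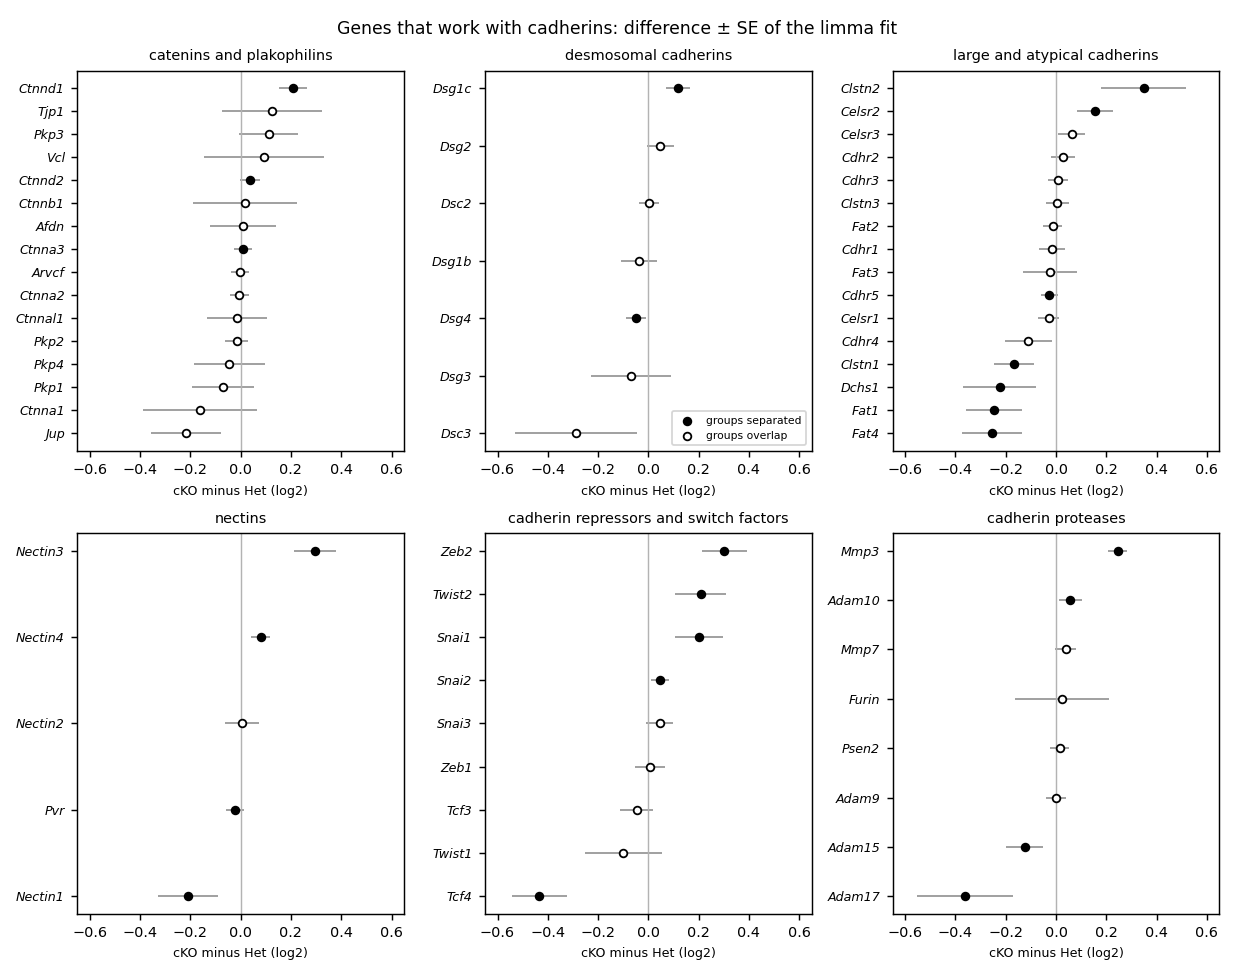
Difference between cKO and Het (log2, points; bars are the SE of the limma fit, n = 2 arrays per group) for each measured gene of 6 lists of cadherin partners, regulators and relatives. Filled points have groups that do not overlap; Tcf4 at -0.43 lies furthest from 0, and every list has points on both sides.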

How the data were processed

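Gene expression was measured on mouse whole-transcript arrays in sorted dermal papilla cells, 2 cKO and 2 Het arrays, with RNA amplified before labelling, per the labels' protocols. The authors made the deposited values with RMA, per the submitters' processing notes. The deposited values were taken as log2, which RMA gives; the base of the logarithm, the software version and the centring are not stated in these sources. Every probe set of the deposited table had a median of 0 over the 4 arrays, within 1e-06, so no filter on level or background was possible.

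The platform annotation gave 1 gene for 21789 of the 28853 probe sets. Each gene was given the mean of its probe sets, which gave 19938 genes. Groups were compared with limma 3.58.1 in R 4.3.3 (lmFit and eBayes, group only, two-sided), adjusted over all genes by Benjamini-Hochberg, at a threshold of 0.05. Degrees of freedom were 2 (residual) and 1.52 (prior). Groups are called separated where every cKO array lies above, or below, every Het array. The members, the lists and the tests were chosen with earlier results of these data known. By rule, per-array values were given for 8 classical or well-known cadherins and for up to 10 members per direction with the largest differences among those with separated groups; those of Cdh6, Pcdh7, Pcdh9, Pcdh10, Pcdh19, Pcdhb16 and Pcdhb20 were added after their values were seen, and the others are given by difference or range; from each partner list the 2 largest differences and 6 fixed genes were named, with Fat1 and Dchs1 added after their values were seen. Alternatives were array centring, a robust prior, a replicate block, an unmoderated statistic, a filter on SD, medians of probe sets, probe sets in place of genes, the numbered genes alone, and each array left out. Figures were drawn with matplotlib 3.10.9.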

Additional observations from a re-analysis of the deposited data

How the results depend on the processing

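The count of 0 members past an adjusted p of 0.05 was obtained under each of the 12 alternatives run. Over all genes the count was also 0 (1053 at an unadjusted p under 0.05), except with only the genes of larger SD over the 4 arrays, a filter that uses the differences themselves: limma then called 116 genes, with the smallest adjusted p of a member at 0.099. That filter kept 28 members, of which 3 were higher and 5 lower with separated groups, and their median difference was -0.0136; of all genes kept 13.2% were higher and 20.3% lower with separated groups, with a median of -0.0281. Without the beta protocadherins 3 of 35 members were higher and 6 lower with separated groups (17.8% and 15.6% of all genes). With 1 array left out, separation is easier: 18 to 24 members were higher (31.6% to 38.6% of all genes) and 15 to 18 lower (30.4% to 33.4%), and the median difference lay between -0.0069 and 0.0187. For the 23 members followed singly, 0 were called under any alternative. Most alternatives leave a difference as it is and cannot turn it. Leaving out 1 array cannot turn the difference of a member with separated groups either, and most of the 23 have separated groups. The count with 1 array left out, where 86 of 92 differences kept their direction, was therefore largely fixed in advance. With arrays centred 23 of 23 kept it. The 6 that turned were Cdh1 (-0.104 to 0.194), Cdh3 (-0.122 to 0.0832), Cdh4 (-0.0280 to 0.10) and Cdh5 (-0.347 to 0.0879), each with 1 array left out. The replicate numbers are not taken to pair the arrays: deviations of same-numbered arrays correlated at 0.304 over all genes, with only 2 pairs. With the replicate block, 0 members and 0 genes were called, with 1625 genes at an unadjusted p under 0.05. With 2 arrays per group and no expression level, precision is limited by the number of arrays, and quiet genes cannot be told from unchanged ones.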

Other observations

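In cKO replicate 1 the value of Cdh10 was 0.86 above the next array, a gap that ranked 6 of 19938 genes. The 5 genes with larger gaps, named after their values were seen, were Cartpt, a neuropeptide gene (1.54), Scg3, a secretory granule gene (1.41), Foxd1, a transcription factor gene of stromal cells (1.41), Igf1, a growth factor gene (1.14), and the small nucleolar RNA gene Snora33 (0.915). Cartpt was at 1.66 and 0.12 in the cKO arrays and at -0.32 and -0.12 in the Het arrays, with separated groups. Igf1 was at 1.20 and -0.07 in the cKO arrays and at 0.07 and -0.285 in the Het arrays, and Foxd1 at 1.52 and -0.55 in the cKO arrays and at 0.12 and -0.12 in the Het arrays, so neither was separated between the groups.

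Of the 57 cadherin and protocadherin genes, 15 and 18 were highest in cKO replicates 1 and 2 and 15 and 9 in Het replicates 1 and 2; over all genes the shares were 22.4%, 31.2%, 25.3% and 21.1% in the same order.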
